A study of Mus musculus with 6 samples.

Results

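The barrier genes of the brain endothelium were examined in hippocampal RNA-seq of WT and TG mice, as the rows of the deposited table whose gene name was Cldn5, Ocln, Tjp1, Abcb1a, Abcg2, Mfsd2a, Slco1c1, Slc7a5, Pecam1 or Cdh5. All 10 genes were present once each among 54532 genes, and all 10 were among the 20952 genes that were tested, for which the mean FPKM had to reach 0.1. Hippocampal RNA was sequenced in 3 libraries of WT and 3 of TG mice, which carry the group and replicate number as names (WT1, TG1 and so on), with 16081281 to 18751057 reads on genes. The TG mice were made by CRISPR/Cas9 knock-in and carry G82R and L85P together in Slc1a2, the gene of the astrocytic glutamate transporter GLT-1, in the germline of a C57BL/6N background. WT littermates served as controls, the labels name no treatment beyond genotype, and the age, the sex of each library's mouse, the zygosity and whether a library holds 1 animal are not given in the sources used here. The edited gene Slc1a2 had an FPKM of 202, 199.5 and 177 in WT mice and 222, 207 and 217 in TG mice. FPKM hold no base of a read, so the edit itself could not be read from them.

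Endothelial cells of brain capillaries form the blood-brain barrier. Tight junction proteins seal the cleft between neighbouring cells, adherens junction proteins hold the cells together, efflux pumps return lipophilic compounds to the blood, and carriers bring in nutrients and hormones. The hippocampus has such a barrier throughout, while the choroid plexus of the adjoining ventricle has leaky capillaries and places the tight junctions in its epithelium instead. Whole tissue was sequenced, so fewer endothelial cells and less RNA per endothelial cell cannot be told apart, and genes such as Tjp1 and Slc7a5 are also made by other brain cells.

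No barrier gene differed between WT and TG mice at an adjusted p under 0.05 (limma on log2(FPKM + 0.1), Benjamini-Hochberg adjustment over 20952 genes), where 0.00477% of all genes tested were higher and 0.00477% were lower. The smallest adjusted p of a barrier gene was 0.786. At an unadjusted p under 0.05, 2 of the 10 genes were higher in TG mice, Ocln and Slco1c1, and none was lower, beside 3.13% and 2.78% of all genes tested. With limma-voom on the reads recovered from the FPKM, these counts were also 0 and 2. In 3 genes (Ocln, Slco1c1 and Slc7a5) the lowest TG library exceeded the highest WT library, as in 6.35% of all genes tested, and in none was the order the opposite, as in 5.71%. The median log2 fold change of the 10 genes was 0.09, beside -0.002 over all genes tested. Of the 10 fold changes, 8 were positive, beside 49.6% of all genes tested, and those of Cldn5 and Pecam1 lay near 0.

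**Figure D1:**
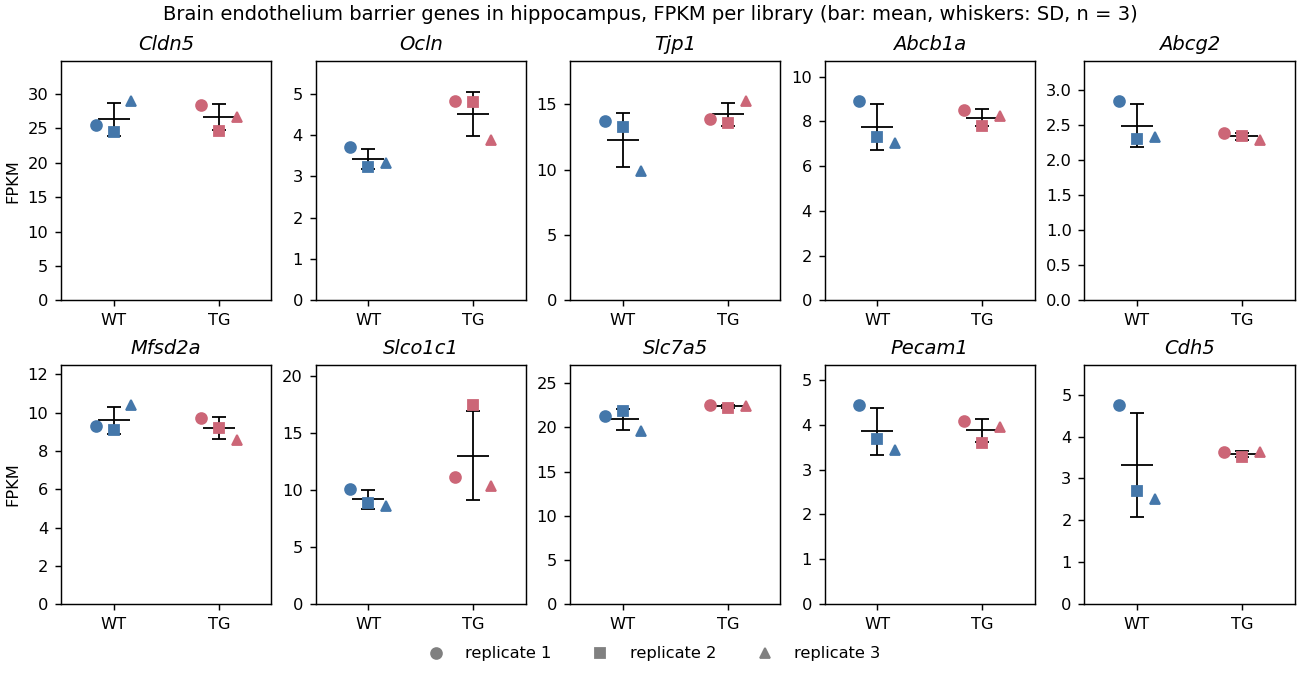
FPKM of each barrier gene in the 3 WT (blue) and 3 TG (red) libraries, with symbols for the replicate number, the mean as a bar and the SD as whiskers, each panel with its own axis from 0. The WT and TG points of Cldn5 and Pecam1 interleave, those of Ocln do not overlap, the TG2 point of Slco1c1 stands at 17.5 and the WT1 point of Cdh5 at 4.76.

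The promoters of 3 genes are shown: Cldn5, whose groups overlapped almost fully, and Ocln and Slco1c1, the 2 genes with an unadjusted p under 0.05. Each holds 300 bases in GRCm38.p6 from RefSeq, from 250 before to 50 after the start, written 5′ to 3′ on the gene's strand. They are chr16:18776597-18776896 on the plus strand for Cldn5, chr13:100552669-100552968 on the minus strand for Ocln and chr6:141524104-141524403 on the plus strand for Slco1c1. Capitals mark the letters of a GC box (GGGCGG, either strand) or the letters TATAAA (either strand), wherever they lie.
Cldn5: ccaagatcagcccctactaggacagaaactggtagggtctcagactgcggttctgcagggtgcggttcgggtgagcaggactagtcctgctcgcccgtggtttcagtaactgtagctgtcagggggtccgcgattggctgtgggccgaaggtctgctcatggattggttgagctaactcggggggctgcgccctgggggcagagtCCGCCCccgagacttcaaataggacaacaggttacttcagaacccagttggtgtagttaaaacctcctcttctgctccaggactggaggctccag
Ocln: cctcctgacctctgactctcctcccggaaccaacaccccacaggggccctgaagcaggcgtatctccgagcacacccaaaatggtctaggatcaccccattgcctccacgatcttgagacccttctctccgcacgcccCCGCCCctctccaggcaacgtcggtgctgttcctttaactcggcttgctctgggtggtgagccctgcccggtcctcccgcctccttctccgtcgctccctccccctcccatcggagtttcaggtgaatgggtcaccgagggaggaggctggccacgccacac
Slco1c1: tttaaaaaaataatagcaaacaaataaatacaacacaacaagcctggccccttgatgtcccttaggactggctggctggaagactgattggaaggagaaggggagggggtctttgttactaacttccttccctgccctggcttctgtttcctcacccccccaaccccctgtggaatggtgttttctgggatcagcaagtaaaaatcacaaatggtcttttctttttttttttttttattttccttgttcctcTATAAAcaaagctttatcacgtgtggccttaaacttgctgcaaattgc
The promoters of Cldn5 and Ocln had 12 and 17 CpG and 58.3% and 64.0% GC, and each held 1 GC box on the opposite strand. That of Slco1c1 had 1 CpG and 42.0% GC and held TATAAA from base 3 after the start. Of all 32851 promoters of the RefSeq table, 35.7% held a GC box and 13.6% held TATAAA. Of the 10 genes, 7 had a promoter in this table. Ocln had 2 and Abcg2 had 3, of which only the nearest to the deposited gene start was searched. The start used lay 156537 bases from the deposited gene start for Tjp1 and 92986 bases for Abcb1a. For the other genes it lay within 14 bases. An ETS letter run of 7 bases (CCGGAAG, either strand) was in none of the 7 promoters and in 8.86% of all promoters. ETS factors set endothelial identity. The TCF/LEF letter run CTTTGAT, 1 form of the site read out by Wnt signalling, was in none of the 7 and in 3.73% of all. These motifs do not overlap one another, and a match describes letters only. Shorter and variant forms of the ETS and TCF/LEF sites were not searched. At shares this low, the absence of a match from 7 promoters says little about them.

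In FPKM, which are per gene length, Cldn5 was the most abundant of the 10 genes, with a mean over all 6 libraries of 26.4. Slc7a5 followed at 21.6, then Tjp1 at 13.3, Slco1c1 at 11.1, Mfsd2a at 9.40, Abcb1a at 7.96, Ocln at 3.96, Pecam1 at 3.87, Cdh5 at 3.45 and Abcg2 at 2.41. The ranges over the libraries of Cldn5 and Slc7a5, of Slc7a5 and Tjp1 and of Abcb1a and Ocln did not overlap. All other neighbours in this order overlapped. Each value rested on 183 to 2152 reads, far above the detection limit. These are reads without molecular identifiers, so they are not counts of molecules.

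Of the tight junction genes, 1 had an unadjusted p under 0.05, Ocln. Cldn5 (ENSMUSG00000041378, chromosome 16 from 18776847 to 18778262 in GRCm38, plus strand), the claudin that seals brain capillaries, had an FPKM of 25.5, 24.4 and 29.0 in WT mice and 28.4, 24.7 and 26.7 in TG mice. The groups overlapped almost fully. The means were 26.3 ± 2.39 and 26.6 ± 1.89 (SD, n = 3 each), and the log2 fold change was 0.02 (standard error, SE, 0.09, adjusted p = 0.966 in limma). The 95% interval of this ratio of TG to WT ran from 0.875-fold to 1.17-fold.

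Ocln (ENSMUSG00000021638, chromosome 13 from 100496507 to 100552718, minus strand) encodes occludin, a tight junction protein of endothelium and of many epithelia, including that of the choroid plexus. Its FPKM was 3.70, 3.23 and 3.33 in WT mice and 4.82, 4.78 and 3.88 in TG mice. All 3 TG libraries lay above the WT libraries, TG1 and TG2 by a wide margin and TG3 by a narrow one. The means were 3.42 ± 0.251 and 4.495 ± 0.531 (SD, n = 3 each). The log2 fold change was 0.38 (SE 0.118, unadjusted p = 0.0138, adjusted p = 0.786 in limma). Without TG1 the unadjusted p was 0.0539 and without TG2 it was 0.0536, with log2 fold changes of 0.33 in both cases.

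Tjp1 (ENSMUSG00000030516, chromosome 7 from 65296165 to 65527781, minus strand) encodes ZO-1, the scaffold that ties claudins and occludin to actin. Its FPKM was 13.7, 13.2 and 9.94 in WT mice and 13.9, 13.5 and 15.3 in TG mice. WT3 lay below the other libraries, which were close to one another, and the groups overlapped. The log2 fold change was 0.22 (SE 0.13, adjusted p = 0.789 in limma). Leaving out WT3 lowered it to 0.07.

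Adhesion genes that define endothelium of all organs overlapped between the groups. Pecam1 (ENSMUSG00000020717, chromosome 11 from 106654217 to 106750628, minus strand), the adhesion molecule CD31, had an FPKM of 4.45, 3.68 and 3.44 in WT mice and 4.09, 3.59 and 3.96 in TG mice, for a log2 fold change of 0.02 (SE 0.12). Its 95% interval ran from 0.830-fold to 1.23-fold. Cdh5 (ENSMUSG00000031871, chromosome 8 from 104101625 to 104144511, plus strand) encodes VE-cadherin, the cadherin of endothelial adherens junctions. Its FPKM was 4.76, 2.70 and 2.52 in WT mice and 3.62, 3.504 and 3.62 in TG mice. WT1 was the highest library and WT2 and WT3 the lowest, so the TG values fell inside the WT range. The log2 fold change was 0.16 (SE 0.227, adjusted p = 0.862 in limma). This value turned on single WT libraries. Without WT1 it was 0.45 with an unadjusted p of 0.00555 and an adjusted p of 0.682 in limma, and without WT3 it was -0.001. WT1 also had the highest meningeal fibroblast markers, with a summed FPKM of 42.8 over 12 markers against 17.6 to 31.3 in the other libraries, and smooth muscle markers of 53.5 over 8 markers, against 26.8 and 28.4 in WT2 and WT3 and 24.6 to 54.5 in TG mice. The part of these cells in the Cdh5 values was not tested.

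The efflux pumps differed by less than the spread between libraries. Abcb1a (ENSMUSG00000040584, chromosome 5 from 8660077 to 8748575, plus strand) encodes P-glycoprotein, the main drug pump of the barrier. Its FPKM was 8.91, 7.30 and 7.02 in WT mice and 8.51, 7.79 and 8.22 in TG mice, for a log2 fold change of 0.08 (SE 0.106, adjusted p = 0.849 in limma). The TG values lay inside the WT range. The log2 fold change was 0.19 without WT1 and 0.02 without WT3. Stretches of 50 bases shared with other genes made up 22.5% of its transcript sequence, most of them shared with its paralog Abcb1b, so the FPKM depend on how the counting treated such reads. Abcb1b was low, at 0.548, 0.496 and 0.488 in WT mice and 0.751, 0.649 and 0.582 in TG mice, for a log2 fold change of 0.31 (SE 0.204). Abcg2 (ENSMUSG00000029802, chromosome 6 from 58584523 to 58695676, plus strand), the breast cancer resistance protein pump, had an FPKM of 2.84, 2.30 and 2.33 in WT mice and 2.38, 2.34 and 2.28 in TG mice, for a log2 fold change of -0.08 (SE 0.121). WT1 alone stood above the other 5 libraries.

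Of the carriers, only Slco1c1 had an unadjusted p under 0.05. Mfsd2a (ENSMUSG00000028655, chromosome 4 from 122946850 to 122961188, minus strand) carries docosahexaenoic acid as lysophosphatidylcholine and restrains transcytosis. Its FPKM was 9.33, 9.08 and 10.4 in WT mice and 9.75, 9.22 and 8.59 in TG mice, for a log2 fold change of -0.06 (SE 0.087), with overlapping groups. Without single libraries it ran from -0.11 (TG1 left out) to -0.0045 (WT3 left out). Slc7a5 (ENSMUSG00000040010, chromosome 8 from 121881150 to 121907694, minus strand) encodes LAT1, the carrier of large neutral amino acids. Its FPKM was 21.3, 21.8 and 19.6 in WT mice and 22.6, 22.2 and 22.4 in TG mice. The TG libraries lay close together above the highest WT library, yet the difference of the means was only 7.14%, with a log2 fold change of 0.10 (SE 0.067, unadjusted p = 0.174 and adjusted p = 0.789 in limma). Without WT3 it was 0.05.

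Slco1c1 (ENSMUSG00000030235, chromosome 6 from 141524368 to 141570177, plus strand) encodes OATP1C1, the thyroxine carrier of brain capillaries, which is also found in choroid plexus epithelium and in astrocytes. Its FPKM was 10.1, 8.86 and 8.60 in WT mice and 11.2, 17.5 and 10.4 in TG mice. TG2 stood far above all others, and TG1 and TG3 lay just above WT1. The means were 9.19 ± 0.805 and 13.0 ± 3.90 (SD, n = 3 each), for a log2 fold change of 0.46 (SE 0.191, unadjusted p = 0.0447, adjusted p = 0.786 in limma). Without TG2 the log2 fold change was 0.23 (unadjusted p = 0.0637). The unadjusted p also exceeded 0.05 when WT1, WT2, WT3 or TG1 was left out, at 0.0696, 0.136, 0.137 and 0.0626.

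**Figure D2:**
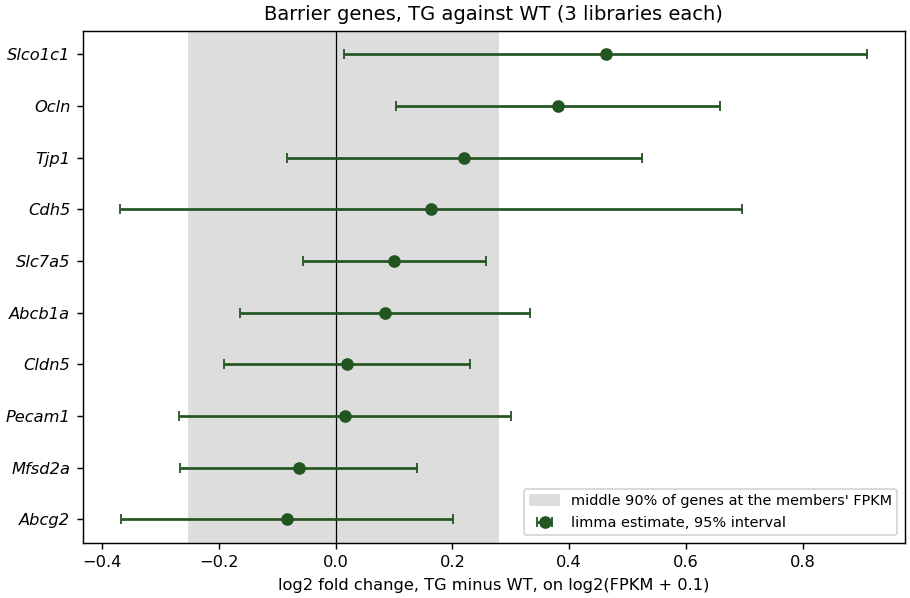
Log2 fold change of each barrier gene, TG minus WT on the log2(FPKM + 0.1) scale, as a point with its 95% interval from limma, 3 libraries per group. The grey band holds the fold changes from -0.25 to 0.28 between which 90% of the 8694 genes at the same FPKM lie, and the points of Ocln (0.38) and Slco1c1 (0.46) are the ones outside it.

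Markers of choroid plexus epithelium, a tissue that also makes Ocln and Slco1c1, were high in TG1 and TG2. The summed FPKM of 20 choroid plexus markers was 117, 87.1 and 99.5 in WT mice and 1356, 4231 and 97.0 in TG mice, and TG3 lay within the WT range. All 20 markers had a positive fold change, 11 of them with an unadjusted p under 0.05, beside 49.6% and 3.13% of all genes tested. Cdh3 was at 0 in WT2 and WT3 and Slco1a5 at 0 in WT1. Ttr, the transthyretin of that epithelium, had an FPKM of 73.0, 49.8 and 66.6 in WT mice and 1168, 3705 and 57.7 in TG mice. The marker with the smallest p was Kcnj13, a potassium channel gene of the same cells, at 0.511, 0.244 and 0.294 in WT mice and 4.98, 13.0 and 0.610 in TG mice (unadjusted p = 0.0138 in limma). Relative to the WT mean on the log2 scale, Ocln stood at 0.49 in TG1, 0.48 in TG2 and 0.18 in TG3, and Slco1c1 at 0.28, 0.93 and 0.18. Cldn5 stood at 0.12, -0.09 and 0.03. A covariate was then fitted, the mean level of the 20 markers, which was chosen with the data in view. Its high values were in TG libraries only, so it overlaps with genotype, and the fit cannot tell the markers from genotype. The part of choroid plexus cells in the barrier gene values was not tested. With the covariate, the log2 fold change of Ocln was 0.20 (unadjusted p = 0.216 in limma) and that of Slco1c1 0.08 (unadjusted p = 0.664). No barrier gene then had an unadjusted p under 0.05. With TG3 alone against the 3 WT libraries, both were at 0.18, with unadjusted p-values of 0.268 and 0.244 in limma, where the lone library is assumed to vary like the WT libraries.

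**Figure D3:**
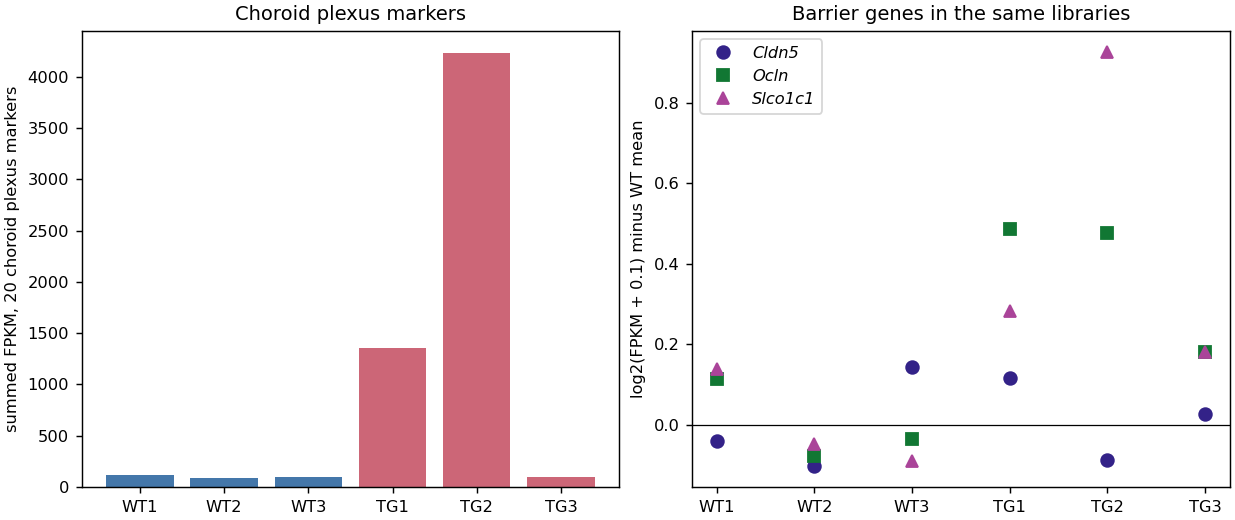
Left, the summed FPKM of 20 choroid plexus markers in each library (linear axis from 0). Right, log2(FPKM + 0.1) of Cldn5, Ocln and Slco1c1 in the same libraries minus the WT mean of the gene, where Ocln is highest in TG1 and TG2, Slco1c1 is highest in TG2 (0.93) and Cldn5 stays between -0.10 and 0.14.

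Ratios of FPKM within a library, chosen after the values were seen, set the barrier genes against an endothelial gene of the same library. Ocln was 0.145, 0.132 and 0.115 of Cldn5 in WT mice and 0.170, 0.194 and 0.145 in TG mice, so TG3 met the level of WT1. Slco1c1 was 0.397, 0.363 and 0.297 of Cldn5 in WT mice and 0.393, 0.710 and 0.389 in TG mice, so TG1 and TG3 fell within the WT range. Against Pecam1 in place of Cldn5, the ratio of Slco1c1 was 2.27, 2.41 and 2.501 in WT mice and 2.73, 4.87 and 2.63 in TG mice, with TG mice higher and no overlap. The ratio of Ocln to Pecam1 (0.833, 0.877 and 0.968 against 1.18, 1.33 and 0.981) and that of Abcb1a to Pecam1 (2.004, 1.98 and 2.04 against 2.08, 2.17 and 2.08) also did not overlap. The choice of endothelial gene thus decided whether the Slco1c1 and Abcb1a ratios overlapped. The ratio of Pecam1 to Cldn5 was 0.175, 0.151 and 0.119 in WT mice and 0.144, 0.146 and 0.148 in TG mice, with the WT libraries more spread than the TG libraries. Of the 13315 other genes whose mean FPKM reached 1, those closest to Cldn5 in profile over the 6 libraries were Mypop, 9330121K16Rik and Vamp2. Their root mean square distances were 0.022 to 0.024 on the log2 scale. The closest barrier gene was Mfsd2a at 0.076. By number alone, the closest of 13315 candidates would tend to lie nearer than the closest of the few barrier genes. These distances therefore cannot decide whether Cldn5 varied with the other barrier genes.

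Other genes of the brain endothelium were compared on lists, and none of the genes on any list had an adjusted p under 0.05. On lists this short, a small count at an unadjusted p under 0.05 does not set a list apart from all genes tested. The median log2 fold change of 17 other junction genes was 0.09. At an unadjusted p under 0.05, 1 was higher and none was lower, beside 3.13% and 2.78% of all genes tested. The 1 gene was Cgnl1, which encodes the junction protein paracingulin. Its FPKM was 2.74, 2.04 and 1.68 in WT mice and 4.40, 6.66 and 2.71 in TG mice, highest in TG1 and TG2. With the choroid plexus covariate its log2 fold change went from 0.995 to 0.28 (unadjusted p = 0.254 in limma). The most abundant gene of this list, Ctnnb1, the gene of beta-catenin, was at 86.0 ± 3.62 and 84.8 ± 2.91 (SD, n = 3 each).

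The median log2 fold change of 22 other transporters and receptors was 0.11. At an unadjusted p under 0.05, none was higher and 1 was lower, beside 3.13% and 2.78% of all genes tested. This was Tfrc, the transferrin receptor that takes iron across the barrier and into other brain cells. Tfrc had an FPKM of 19.8, 22.5 and 25.5 in WT mice and 18.6, 16.9 and 16.5 in TG mice, and the groups did not overlap, with WT mice higher. Its log2 fold change was -0.38 (SE 0.104, unadjusted p = 0.00814, adjusted p = 0.786 in limma), and it was -0.39 with the choroid plexus covariate (unadjusted p = 0.0469). The most abundant, Slc2a1, the glucose carrier GLUT1, was at 35.6 ± 2.61 and 38.1 ± 3.45 (SD, n = 3 each), with overlapping groups.

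The median of 26 other endothelial identity genes was 0.07. At an unadjusted p under 0.05, 1 was higher and none was lower, beside 3.13% and 2.78% of all genes tested. This was Flt1, a VEGF receptor gene, which had an FPKM of 5.62, 5.70 and 4.86 in WT mice and 6.65, 5.94 and 6.57 in TG mice, for a log2 fold change of 0.24 (SE 0.0968, unadjusted p = 0.0403 in limma), which was 0.30 with the choroid plexus covariate (unadjusted p = 0.0811). The call was lost in 10 of 17 alternatives, among them the replicate block (unadjusted p = 0.0706 in limma), eBayes without trend, quantile normalization and TPM. The most abundant gene, S1pr1, a sphingosine phosphate receptor also made by astrocytes, was at 39.9 ± 1.04 and 40.5 ± 0.789 (SD, n = 3 each).

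Wnt ligands from brain cells keep endothelium in its barrier state through beta-catenin. The median of 21 genes of this pathway was 0.09. At an unadjusted p under 0.05, 2 were higher and none was lower, beside 3.13% and 2.78% of all genes tested. Fzd4, the receptor that Norrin and Wnt share, had an FPKM of 3.00, 2.79 and 2.19 in WT mice and 4.18, 4.97 and 3.34 in TG mice, for a log2 fold change of 0.62 (SE 0.178, unadjusted p = 0.00951). Lrp5, its co-receptor, had 1.62, 1.38 and 1.21 in WT mice and 1.97, 2.06 and 1.73 in TG mice, for a log2 fold change of 0.43 (SE 0.153, unadjusted p = 0.025). Both were lowest in TG3 among TG mice, and with the choroid plexus covariate the unadjusted p was 0.158 for Fzd4 and 0.237 for Lrp5. The target gene Apcdd1, the most abundant of the list, was at 11.3 ± 2.36 and 11.4 ± 0.535 (SD, n = 3 each).

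The median of 9 genes of caveolae and transcytosis was 0.15. At an unadjusted p under 0.05, 1 was higher, beside 3.13% of all genes tested. Ehd4, a gene of membrane trafficking, had an FPKM of 3.75, 2.63 and 2.28 in WT mice and 4.15, 3.86 and 3.91 in TG mice, for a log2 fold change of 0.48 (SE 0.177, unadjusted p = 0.0299 in limma), which was 0.44 with the choroid plexus covariate (unadjusted p = 0.143) and had an unadjusted p of 0.0528 with eBayes without trend. Plvap, which marks fenestrated capillaries such as those of the choroid plexus, had 5.12, 4.27 and 5.65 in WT mice and 5.98, 7.16 and 4.12 in TG mice, highest in TG2 and lowest in TG3. It overlaps Gtpbp3 on the opposite strand, and the counting does not state a strand. The most abundant, Cav2, was at 9.45 ± 1.02 and 8.70 ± 0.665 (SD, n = 3 each). Of 12 genes of endothelial adhesion and activation, 11 were tested, with a median of 0.08. At an unadjusted p under 0.05, 1 was higher, beside 3.13% of all genes tested. Vcam1, the adhesion molecule that binds leukocytes, had an FPKM of 3.21, 2.33 and 2.56 in WT mice and 4.03, 5.13 and 4.06 in TG mice. All TG libraries were above the WT libraries, TG3 included, with a log2 fold change of 0.69 (SE 0.154, unadjusted p = 0.00254, adjusted p = 0.786 in limma) and 0.51 with the choroid plexus covariate (unadjusted p = 0.0436). Ackr1, a chemokine-binding protein gene and the most abundant, overlaps Cadm3 on the same strand, so its reads cannot be told apart with certainty, and was at 28.9 ± 5.66 and 28.0 ± 3.85 (SD, n = 3 each). The unadjusted calls of Tfrc, Fzd4 and Vcam1 held when any 1 library was left out, whereas those of Cgnl1, Lrp5, Ehd4 and Flt1 were each lost without TG1 and without WT3, among others. With TG3 alone against the WT libraries, none of these 7 had an unadjusted p under 0.05 in limma, in a group of 1 library. The log2 fold changes were then -0.45 for Tfrc, 0.28 for Flt1, 0.46 for Ehd4 and 0.59 for Vcam1, close to those with all libraries, and 0.35 for Cgnl1, 0.33 for Fzd4 and 0.29 for Lrp5, which were lower.

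Cells around the vessels were compared in the same way. The median of 12 pericyte markers was 0.02. At an unadjusted p under 0.05, none was higher and 1 was lower, beside 3.13% and 2.78% of all genes tested. This was Cox4i2, a subunit of cytochrome oxidase, at 1.65, 2.12 and 1.69 in WT mice and 1.28, 1.56 and 0.984 in TG mice, whereas Vtn, the most abundant, was at 33.0 ± 7.65 and 33.2 ± 4.77 (SD, n = 3 each). None of 8 smooth muscle, 12 meningeal fibroblast, 12 astrocyte and endfoot, 5 red blood cell or 9 neuron markers had an unadjusted p under 0.05, and the medians were 0.15, 0.18, 0.04, -0.13 and 0.02. Single libraries turned the first of these, as the smooth muscle median was 0.59 without WT1 and -0.04 without WT2, -0.03 without WT3 and -0.06 without TG1. The meningeal median was 0.56 without WT1, 0.53 without TG2 and -0.06 without WT3. The genes with the smallest p on the smooth muscle, meningeal, red blood cell and neuron lists were Des, the intermediate filament gene of muscle (unadjusted p = 0.249 in limma), the growth factor gene Igf2 (0.0529), the globin gene Hbb-bs (0.212) and the synaptic gene Snap25 (0.245). The most abundant were Myl9 at 16.7 and 17.9, Dcn at 10.02 and 9.45, Aldoc at 274 and 255, Hbb-bs at 94.9 and 81.6 and Camk2a at 509 and 556 mean FPKM in WT and TG mice. The neuron and astrocyte markers of the labelled tissue were thus present in both groups. Of 12 microglia and leukocyte markers, 8 were tested. Of these, 5 had a positive and 3 a negative log2 fold change, with a median of 0.08. At an unadjusted p under 0.05, 1 was higher, the microglial receptor gene Csf1r, beside 3.13% of all genes tested. Csf1r was at 19.4 ± 0.461 and 22.1 ± 1.73 FPKM (SD, n = 3 each) in WT and TG mice. The calls of Cox4i2 and Csf1r were both lost without WT1, among other libraries. The summed FPKM of the neuron markers was 1424 to 1522 in WT mice and 1438 to 1644 in TG mice, and that of the red blood cell markers was 143 to 202 and 159 to 165.

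**Figure D4:**
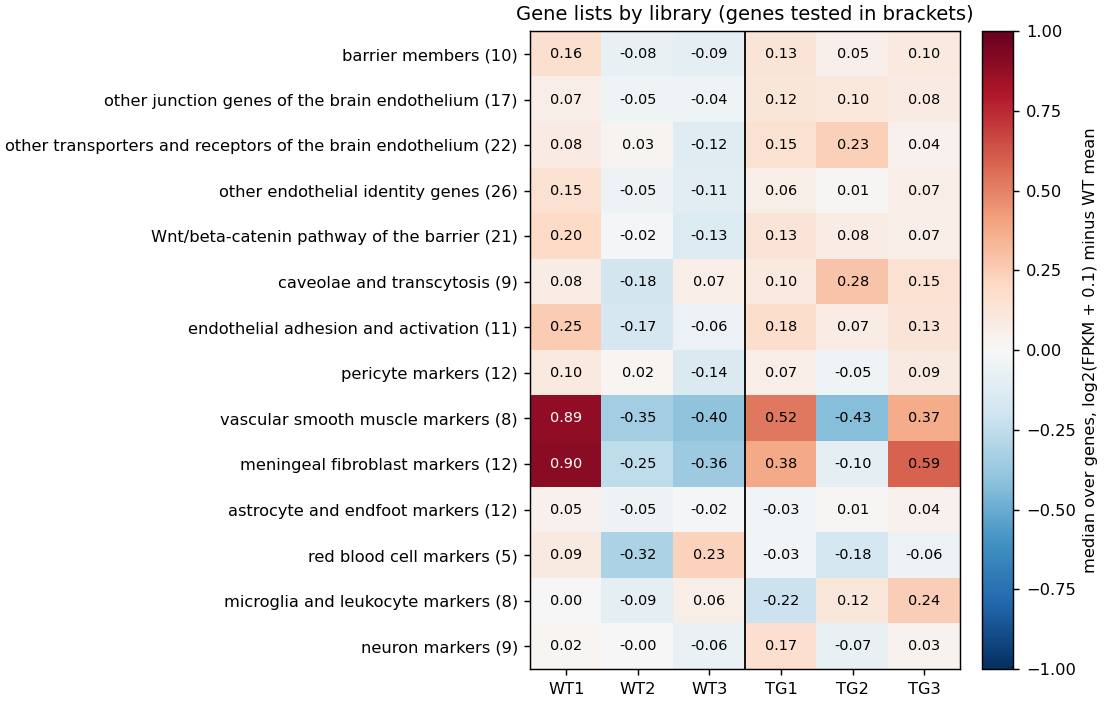
Median over the genes of a list of log2(FPKM + 0.1) minus the WT mean of the gene, per library. Brackets hold the number of genes tested, and colour runs from -1 (blue) to 1 (red). The choroid plexus list is not shown, as its medians in TG1 (2.37) and TG2 (3.84) lie beyond these colours. The medians of the 10 barrier genes stay between -0.09 and 0.16, while those of smooth muscle and meningeal markers are high in WT1 (0.89 and 0.90), TG1 and TG3.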

How the data were processed

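Hippocampal RNA-seq was used, 3 libraries of WT and 3 of TG mice. The authors counted reads per gene with HTSeq and deposited FPKM, computed from read count and gene length, each library in a column of its own. The aligner is not given in the sources used here. The submitters' processing notes name GRCm38 and mm10, and 53499 of the 54532 genes, all 10 barrier genes included, had the same coordinates in GENCODE M21. The methods name Trizol and NEBNext kits, the labels RNeasy and SMARTER kits. Strand was not stated, so antisense genes are uncertain, but genes overlapping a barrier gene had an FPKM under 0.14.

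FPKM times gene length was divided by the value of 1 read, which was fitted for each library to these same values. This returned whole reads for 100% of values above 0 (tolerance 0.05 reads). Library depth was thus estimated and not taken from a record. By this estimate, 16081281 to 18751057 reads fell on genes per library. For a 1 kb gene, 3 reads were then worth 0.160 to 0.190 FPKM, and such limits cover counting error only. WT and TG were compared on log2(FPKM + 0.1) by limma 3.58.1 (R 4.3.3; lmFit, eBayes with trend) over genes whose mean FPKM reached 0.1, without covariate or block, p-values adjusted by Benjamini-Hochberg, threshold 0.05. Fold changes on this scale understate those of low genes. Intervals of 95% are from the same fit. The titles number the mice, but whether a library holds 1 animal is not stated, so p-values measure the spread between these libraries, which may be technical. No p was adjusted over a list alone.

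The 10 genes and the lists of junction, transporter, identity, Wnt, transcytosis, activation, pericyte, smooth muscle, choroid plexus, meningeal, astrocyte, red blood cell, microglia and neuron genes were chosen with earlier results of these data known. From each list the genes with the smallest p and the highest level and up to 3 genes at an unadjusted p under 0.05 were named, with Plvap, Cdh3 and Slco1a5 named after their values were seen. A gene that this rule names is not reported here. Also named were the edited gene, a copy of a barrier gene and the 3 genes closest to Cldn5. Alternatives changed the pseudocount, filter, variance model, scaling, test, samples and block. Figures used matplotlib 3.10.9 in Python 3.11.15.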

Additional observations from a re-analysis of the deposited data

How the results depend on the processing

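Under 17 alternatives, no barrier gene reached an adjusted p under 0.05. The number at an unadjusted p under 0.05, 2 as reported, was 1 with eBayes without a trend, and 0 with the choroid plexus covariate and 0 without TG1 and TG2, both chosen after seeing the data. Leaving out each library in turn gave 0 to 2, with 0 without TG1 and without TG2, and 1 without WT2 and without WT3. The 2 without WT1 were Ocln and Cdh5. The median log2 fold change of the 10 genes ranged from 0.04 without WT3 to 0.15 without WT1. Directions changed for Pecam1, Cldn5, Abcg2 and Cdh5. Pecam1 was at -0.016 with quantile normalization, -0.014 without WT2, -0.061 without WT3 and -0.023 without TG1. Cldn5 was at -0.0017 without WT1, -0.033 without WT2 and -0.030 without TG1. Abcg2 was at 0.012 without WT1 and Cdh5 at -0.0014 without WT3. With single libraries left out, the log2 fold change of Cldn5 ranged from -0.033 to 0.091, of Pecam1 from -0.061 to 0.12, of Abcg2 from -0.13 to 0.012 and of Cdh5 from -0.0014 to 0.45. Over the lists, the median turned for identity genes (-0.002 without WT2), activation genes (-0.06 without WT2), pericyte markers (-0.05 without WT3) and microglia and leukocyte markers (-0.007 without TG3), beside the smooth muscle and meningeal lists. Without WT1 it was 0.17 for junction genes and 0.22 for Wnt genes, and for transcytosis genes 0.04 without TG2. The cause was not tested.

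Over all genes, 2 had an adjusted p under 0.05 as reported, 0 with either other pseudocount, without the filter, with voom or under the covariate, 1 with a mean FPKM of at least 1, and 9 without a trend, and 0 to 6 with a library left out (6 without TG1). At an unadjusted p under 0.05, 1238 genes were called as reported and 710 with the choroid plexus covariate. The replicate block left the count of barrier genes at an unadjusted p under 0.05 at 2, and of all genes at 1244 with 0 at an adjusted p under 0.05. Deviations from the group means of libraries with the same number correlated at 0.013, 0.043 and 0.0031 across genes. The pair WT2 and TG2 had the highest correlation of all, and WT3 correlated best with TG1, at 0.016. With 3 libraries per group, these values cannot decide whether the numbers pair the samples.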
